A study of Mus musculus with 2 samples.

Results

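A set of 9 genes of the LIF and Stat3 pathway was followed in mouse induced pluripotent stem cells (iPSCs), on 25 probe sets in all. The genes were Lifr, Il6st, Jak1, Jak2, Ptpn11, Stat3, Socs3, Pim1 and Pim3. They were chosen by name, and a probe set was taken where the array's platform table gives it that gene and no other. They are 9 of 12393 genes with such a probe set. The samples were 1 labelled hybridized and 1 labelled live, with 1 array each. Both were iPSCs grown in mouse embryonic stem cell medium with serum and 2i, the pair of kinase inhibitors that blocks MEK and GSK3 and holds cells in the naive state. The labels give no strain, passage, clone or donor cell, and are silent on the agent of hybridization. The comparison addresses how the profile read from hybridized cells relates to that of live cells.

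LIF binds Lifr, which pairs with Il6st, the signalling subunit shared by the receptors of the IL6 family. The paired receptors activate the attached kinases Jak1 and Jak2, which phosphorylate Stat3, and Stat3 then enters the nucleus and switches on target genes. Among these targets, Socs3 feeds back to silence the receptor, and Pim1 and Pim3 encode serine/threonine kinases that favour survival and self-renewal. Ptpn11 encodes Shp2, a phosphatase recruited to Il6st that links the receptor to the ERK pathway. In mouse pluripotent cells LIF and Stat3 sustain self-renewal, and serum medium for such cells usually contains LIF, although the labels do not name it.

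The upstream sequences of the 3 target genes are shown because Stat3 acts on such regions. A further reason is that these genes read on the same side as deposited in the comparison below. That side depends on the scale, as given there. The sequences are the 250 bases before the RefSeq start site of build GRCm38.p6, read 5′ to 3′ on the gene's strand. Capitals mark TTCNNNGAA, the letters of a STAT element, which read the same on both strands. The windows are chr11:117969367-117969616 on the minus strand for Socs3, chr17:29490535-29490784 on the plus strand for the first of the Pim1 starts, and chr15:88861944-88862193 on the plus strand for Pim3.
Socs3 upstream: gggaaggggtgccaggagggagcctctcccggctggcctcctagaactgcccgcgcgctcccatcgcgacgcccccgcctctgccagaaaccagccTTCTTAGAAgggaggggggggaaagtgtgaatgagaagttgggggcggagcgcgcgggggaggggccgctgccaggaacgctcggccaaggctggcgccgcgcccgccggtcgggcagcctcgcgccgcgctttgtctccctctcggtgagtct
Pim1 upstream: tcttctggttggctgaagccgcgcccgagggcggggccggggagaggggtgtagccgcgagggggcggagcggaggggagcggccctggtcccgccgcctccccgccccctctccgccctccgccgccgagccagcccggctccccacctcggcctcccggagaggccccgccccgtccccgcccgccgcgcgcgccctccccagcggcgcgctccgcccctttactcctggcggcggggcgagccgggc
Pim3 upstream: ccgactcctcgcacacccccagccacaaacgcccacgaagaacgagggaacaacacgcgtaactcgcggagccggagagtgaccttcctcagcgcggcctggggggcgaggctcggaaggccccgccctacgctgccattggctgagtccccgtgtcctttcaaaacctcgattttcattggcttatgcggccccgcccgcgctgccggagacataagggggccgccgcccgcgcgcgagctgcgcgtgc

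The letters occurred once, as TTCTTAGAA in Socs3, from 154 to 146 bases before the start. Windows of 300 bases, of which 50 lie after the start, were found for all 9 genes, with 11 starts in total. The Socs3 window was the only one of the 11 with TTCNNNGAA, against 8.3% of 32851 RefSeq windows of the same length. The variant with one more base in the middle, TTCNNNNGAA, occurred in 0 of the 11 and in 6.95% of all. The member windows held between 4 and 53 CG dinucleotides, against a median of 7 over all windows, and the extremes were both starts of Lifr. A match is a description of letters, and binding was not measured.

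Values are log2 GCRMA values, and each difference is the hybridized value minus the live value. Because there was 1 array per group, nothing could be tested, replicate error is unknown, and the precision is limited by the number of arrays. A probe set was compared where the mean of both arrays was 5 or more, which left 15 of the 25 member probe sets, with at least 1 for each gene. The other 10 are described separately. Of the 11407 single-gene probe sets at that level, 13.1% read higher by 2-fold or more in the hybridized sample and 12.8% read lower by as much. The median difference of all these probe sets was -0.07. Centring on the 18 hybridization control probe sets, for transcripts usually spiked into the labelled material, adds 0.80 to every difference, so the sign of a difference between -0.80 and 0 depends on the scale.

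None of the 15 member probe sets was 2-fold apart in either direction as deposited. Their differences ran from -0.93 to 0.92. The receptor genes Lifr and Il6st read higher in the hybridized sample, whereas Stat3 and its targets Socs3, Pim1 and Pim3 read lower as deposited on each probe set at the level. Centred on the hybridization controls, 13 of the 15 were above 0 and 1, of Pim3, was below. The lower readings of Stat3, Socs3, Pim1 and the other probe set of Pim3 therefore did not keep their sign. The same shift put the median of all probe sets at the level at 0.73. The count above 0 is thus not read as particular to these genes. The order among the genes does not depend on such a common shift.

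**Figure D1:**
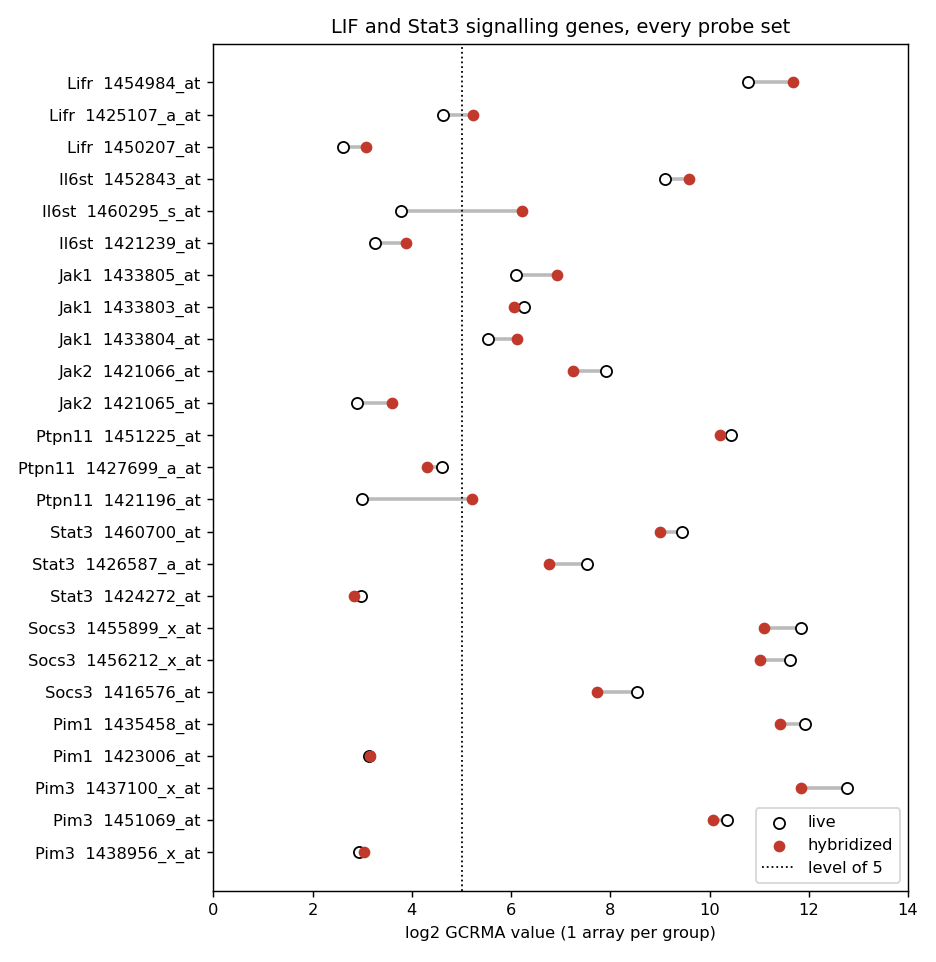
Log2 GCRMA values of the 25 probe sets of the 9 genes, 1 row per probe set, with the live array as open circles, the hybridized array as filled circles and the level of 5 as a dotted line. At the level, Lifr and Il6st lie to the right in the hybridized sample, and Stat3, Socs3, Pim1 and Pim3 to the left as deposited. Centred on the hybridization controls, only 1 probe set, of Pim3, stays below 0.

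Lifr (Entrez 16880), the ligand-binding receptor subunit, read 11.69 in the hybridized and 10.77 in the live sample on probe set 1454984_at. The difference of 0.92, or 1.89-fold, was the highest of the 15. Its size lay just past the 95th percentile of 0.89 for probe sets with a mean of 11 or more, where differences are narrow. Both dimmer probe sets of Lifr read higher as well, at 5.23 against 4.63 and at 3.07 against 2.62, though neither reached the level.

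Il6st (Entrez 16195), the signal-transducing subunit, read 9.59 in the hybridized and 9.10 in the live sample on 1452843_at, a difference of 0.49. Probe sets with means from 9 to under 11 had a 75th percentile of 0.60, so this value lay within the middle of its band. A second probe set, 1460295_s_at, read 6.22 against 3.77, which is 2.45 higher. Its mean of 4.995 was just under the level, and the suffix _s_at marks probes shared by several transcripts. The third, at 3.88 against 3.25, was under the level on both arrays. All 6 receptor probe sets therefore read higher in the hybridized sample as deposited, and they did so after both centrings and after quantile normalization.

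The receptor-bound kinases gave mixed readings over their probe sets. Jak1 (Entrez 16451) was measured on 3 probe sets, all dim. Probe set 1433805_at read 6.92 in the hybridized and 6.10 in the live sample, and 1433804_at read 6.11 against 5.53. The remaining one, 1433803_at, read 6.05 against 6.25, a difference of -0.20 that turned positive after loess and with control centring. The 3 differences of Jak1 thus spanned 1.02 log2 units, with a mean of 0.40 and an SD of 0.53 over probe sets of the same 2 arrays. After a loess correction for level, that of 1433805_at was 1.05 and so past 2-fold.

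Jak2 (Entrez 16452) read 7.24 in the hybridized and 7.92 in the live sample on 1421066_at, a difference of -0.68 that became 0.12 with control centring. Its other probe set read 3.60 against 2.90, under the level. The probe sets of Jak2 thus did not share a sign as deposited. The 3 Jak1 differences lay 0.48 to 1.5 log2 units above that of 1421066_at.

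Ptpn11 (Entrez 19247) read 10.21 and 10.43 in the hybridized and live samples on 1451225_at, a difference of -0.22 that became 0.58 with control centring. A dimmer probe set, 1421196_at, read 5.22 against 3.0, or 2.22 higher, with a mean under the level. The remaining one read 4.31 against 4.61. The bright and the dim probe sets of this gene did not give the same picture.

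Stat3 (Entrez 20848), the transcription factor of the pathway, read 9.0 in the hybridized and 9.44 in the live sample on 1460700_at. On 1426587_a_at it read 6.76 against 7.53. The differences of -0.44 and -0.77 shared their sign as deposited and became 0.36 and 0.03 with control centring. The third probe set, at 2.83 against 2.97, was near the lower end of the scale, where values have no order.

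Socs3 (Entrez 12702), the feedback inhibitor, had the most even readings. On 1455899_x_at it read 11.09 in the hybridized and 11.84 in the live sample, on 1456212_x_at 11.01 against 11.63, and on 1416576_at 7.74 against 8.54. The 3 differences of -0.75, -0.62 and -0.80 had a mean of -0.72 and an SD of 0.09. Over 2720 genes with at least 2 probe sets at the level, the pooled SD within a gene was 0.84. That pool covers all levels of 5 or more, whereas both _x_at probe sets of Socs3 had means of 11 or more, where differences are narrow. With control centring the 3 values lay between 0 and 0.18, that is, at the position of the spiked controls. The suffix _x_at marks probes that may also match other transcripts, and the probe set without it gave the lowest of the 3 values.

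Pim1 (Entrez 18712) read 11.41 in the hybridized and 11.92 in the live sample on 1435458_at, a difference of -0.51 (0.29 with control centring). Its other probe set was at 3.15 and 3.14. Pim3 (Entrez 223775) read 11.84 against 12.77 on 1437100_x_at, where the difference of -0.93 was the lowest of the 15. Probe sets with means of 11 or more had a 5th percentile of -0.86, so this one lay just past it. It was also the only member below 0, at -0.13, with control centring. On 1451069_at, whose ID carries no such suffix, Pim3 read 10.06 against 10.36, a difference of -0.30, and 1438956_x_at was at 3.04 and 2.94. The lowest reading among the members thus came from a probe set that may match other transcripts, and the gene's other bright probe set lay 0.63 log2 units nearer to 0.

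**Figure D2:**
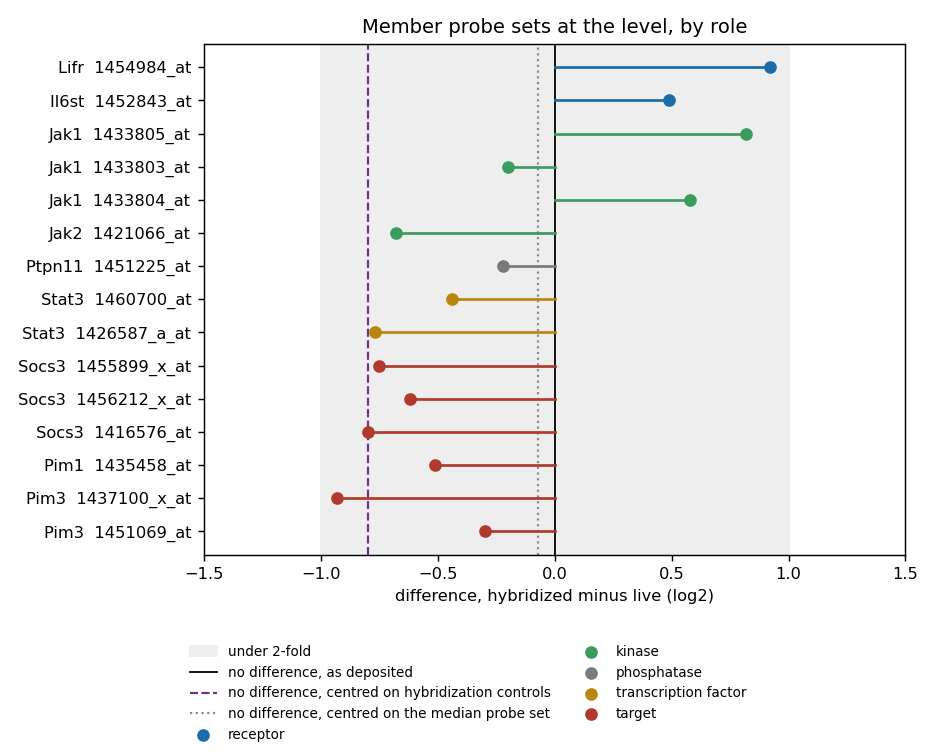
Differences of the 15 member probe sets at the level, hybridized minus live in log2 units, 1 array per group, coloured by role, with the range under 2-fold shaded. Vertical lines mark where no difference lies as deposited, centred on the median probe set (-0.07) and centred on the hybridization controls (-0.80). The receptors and 2 of the 3 Jak1 probe sets lie right of 0, and Stat3 and its targets lie left of 0 as deposited, but right of or on the control line except for 1 probe set of Pim3.

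A common shift of scale does not move the gap between receptor and target genes, but other differences between the arrays can. In the control transcripts Actb, Gapdh and Tfrc, described below, the 5′ difference lay 2.52, 1.81 and 0.5 above the 3′ one. The part of this in the gaps was not tested. At the brightest probe set of each gene, Lifr lay 1.67 log2 units above Socs3 in its difference, 1.36 above Stat3 and 1.85 above Pim3, and Il6st lay 1.24 above Socs3. With the other probe set of Pim3, whose ID has no _x_at suffix, the gap between Lifr and Pim3 was 1.22. These are gaps between differences, not between levels. No replicate error is available for them. The within-gene SD of 0.84 is pooled over probe sets at all levels of 5 or more, and describes probe sets of the same arrays. It is therefore not the error of these gaps, which use brighter probe sets. At means of 11 or more, the 5th and 95th percentiles of all differences were -0.86 and 0.89. At means from 9 to under 11 they were -1.27 and 1.47. The probe sets of Il6st and Stat3 used here, and the other one of Pim3, lay in that band. These are percentiles of single differences, not of gaps between differences.

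At a smaller fold the lower readings came from Socs3, Pim3, Stat3 and Jak2, and several of them were probe sets of the same gene, Socs3. Of the 15 member probe sets, 2 read higher in the hybridized sample by 1.5-fold or more and 6 read lower by as much. Over all single-gene probe sets at the level 23.0% were 1.5-fold higher and 26.0% were 1.5-fold lower, against 13.3% and 40% of the member probe sets. The 2 higher ones belonged to Lifr and Jak1. The 6 lower ones were those of Socs3, 1 of Pim3, 1 of Stat3 and that of Jak2. The median of the 15 differences was -0.44, against -0.07 for all probe sets at the level. With control centring these medians were 0.36 and 0.73, since the shift is the same for both. Taking the mean over every probe set of a gene, dim ones included, brought the median of the 9 genes to 0.01.

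The absence of 2-fold members is read against the level of the probe sets. Among all single-gene probe sets whose mean reached 11, 6.87% differed by 2-fold in one direction or the other, and 5 of the 15 member probe sets lay there. The share was 21.9% at means from 9 to under 11, with 4 members, 33.4% from 7 to under 9, with 3, and 36.6% from 5 to under 7, with 3. The count of 0 is not read as particular to these genes.

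**Figure D3:**
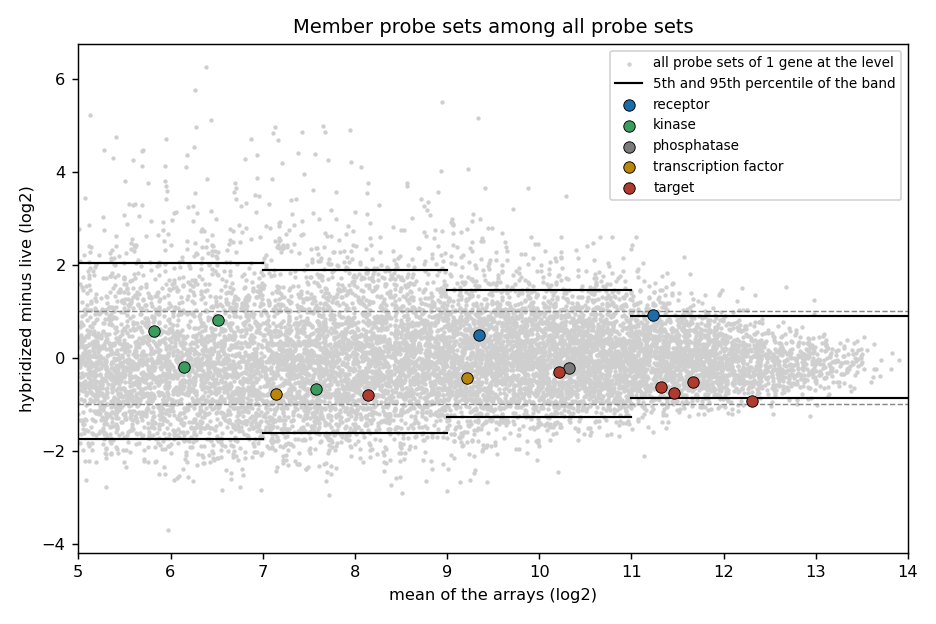
Difference (hybridized minus live, log2, 1 array per group) against the mean of both arrays for 11407 single-gene probe sets at the level (grey) and the 15 member probe sets (coloured by role). Black lines give the 5th and 95th percentile in 4 bands of level and dashed lines mark 2-fold. Lifr at 0.92 and 1 probe set of Pim3 at -0.93 lie just past these percentiles, and the other 13 lie inside.

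Under the level, 4 member probe sets had means from 4 to under 5. Of these, 2 were at least 2-fold higher, the ones of Il6st and Ptpn11 given above, and 0 were 2-fold lower. Among all 1503 single-gene probe sets in that range 12.2% were 2-fold higher and 13.0% were 2-fold lower. The 6 member probe sets under 4 held none that was 2-fold apart. The 2 higher probe sets each crossed the level on the hybridized array alone, while the brightest probe sets of these genes differed by 0.49 and -0.22.

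Control probe sets for the 5′ and 3′ ends of Actb, Gapdh and Tfrc, which track how much of a transcript was copied, differed between the arrays. The 5′ value minus the 3′ value of Actb was -0.50 in the hybridized and -3.02 in the live sample. For Gapdh it was -0.12 and -1.93, and for Tfrc -3.23 and -3.73. Hybridized minus live, the 5′ probe sets of Actb, Gapdh and Tfrc differed by 1.76, 0.96 and 1.88. Their 3′ probe sets differed by -0.76, -0.85 and 1.38. The files used here do not place the probe sets of the members along their transcripts. The part of this in the differences between probe sets of a gene, and in the gaps between genes, was not tested.

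The cells carried their pluripotency markers on both arrays. Each of 11 marker genes had a probe set at the level, and 0 of their 14 probe sets at the level were 2-fold apart. All but that of Utf1 had means of 11 or more, where 6.87% of all probe sets were 2-fold apart. Their differences as deposited ran from -0.70, of Pou5f1, to 0.21, and 10 of the 14 were below 0. Of 14 fibroblast or feeder markers 2 reached the level, Vim and Col1a1, and of 7 primitive endoderm markers 0 did. Col1a1 read 4.46 in the hybridized and 6.17 in the live sample on 1 probe set and was under the level on the other, and Vim differed by -0.15, -0.36 and 1.32 over its 3. Of 5 blood markers with a probe set only Kit reached the level, at 10.69 against 10.49 and, on a dimmer probe set, 7.66 against 4.24. Krt8, on the trophectoderm list, differed by -1.48 to -1.19 on its 3 probe sets (-0.68 to -0.39 with control centring), whereas Krt18 was 0.71 higher and Eomes differed by 0.40 and -0.08. Whether these bear on the members was not tested, and fewer cells of a type and less RNA per cell cannot be told apart in such samples.

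Other genes of the pathway, taken from a list of 48, gave 47 probe sets at the level in 30 genes. As deposited 4 of these probe sets (8.51%) were higher by 2-fold or more and 8 (17.0%) were lower by 2-fold or more, beside 13.1% and 12.8% of all. Their median was -0.12. With control centring, which moves every probe set alike, 16 of the 47 were 2-fold higher and 0 lower, where 37.1% and 2.25% of all probe sets at the level were. With a level of 5 on each array in place of the mean, 3 were higher and 6 lower.

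Among ligands of the family, Lif itself read 5.20 in the hybridized and 6.31 in the live sample, and Ctf1, cardiotrophin, 7.37 against 8.30. Both stayed below 0 with control centring, at -0.31 and -0.13. The probe sets of Il6, Il11 and Clcf1 were all under the level, with values from 1.31 to 3.40 over both arrays. The other receptors were dim. Il6ra read 5.33 and 5.41 on its brightest probe set, the probe sets of Osmr read 2.13 to 2.18 in the hybridized and 2.09 to 2.17 in the live sample, and Cntfr read 3.14 against 4.56, all but Il6ra under the level. In these cells the dim readings of Osmr stand beside bright ones of Lifr and Il6st, but levels of different probe sets cannot be ranked.

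Tyk2, a further kinase of the family, read 7.66 in the hybridized and 8.87 in the live sample, a difference of -1.21 that stayed negative, at -0.41, with control centring. Jak3 was under the level at 4.14 against 5.07. Among the other STAT genes, Stat6 read 9.45 against 10.46 on its brightest probe set, but 6.46 against 6.27 on the other. Stat4 (7.47 against 7.09), Stat5a (8.27 against 8.0) and Stat2 (5.41 against 4.97) read slightly higher and Stat5b (5.31 against 5.85) lower as deposited. None of these 4 was 2-fold apart as deposited. The Stat3 readings were thus not shared by every STAT gene, and no difference between them could be tested.

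The other SOCS genes, inhibitors of cytokine receptors, lay within 2-fold. Socs2 read 10.67 in the hybridized and 11.32 in the live sample on its brightest probe set and 9.51 against 9.70 on the other. Socs4 differed by -0.06 and -0.23, Socs5 by -0.56 and 0, and Socs6 by 0.74. The signs for Socs2, Socs4 and Socs5 turned positive with control centring, and that of the brightest Socs4 probe set also with median centring and loess. Socs1, Socs7 and Cish had no probe set at the level.

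The 2-fold lower pathway genes, beside Lif, Tyk2 and Stat6, were Hes1, a transcriptional repressor (-1.48), Sh2b1, an adaptor of Jak2 (-1.39), Pias3, an inhibitor of Stat3 (8.18 against 9.28), Ptpn1, a phosphatase that acts on Jak2 (-1.08), and Pim2, the third Pim kinase (4.76 against 5.79). All 5 stayed below 0 with control centring, at -0.68 to -0.23. Sh2b1, at 4.94 against 6.33, and Pim2 reached the level only through the live array. The higher ones were single probe sets of Gab1, an adaptor of Ptpn11 (2.95), Pias2 (1.65), Stam2 (1.14) and Pias1 (1.05). That of Gab1, at 7.72 against 4.77, reached the level only through the hybridized array. For Gab1 the brightest probe set read 11.94 against 11.84, and for Pias2 it read 11.59 against 11.77. The upward values of Gab1 and Pias2 therefore did not repeat on the brightest probe set of the gene. That of Stam2 was on its brightest probe set, and the brightest of Pias1 differed by 0.82. Their remaining probe sets at the level differed as deposited by 0.57 and -0.56 for Stam2 and by -0.46 for Pias1. Among the lower genes, the dimmer probe set of Ptpn1 differed by -0.95. The dimmer ones of Pias3, at 4.72 against 3.95, and of Lif, at 2.93 against 2.74, read higher but were under the level.

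The list of STAT3 target genes was drawn up from genes known to respond to LIF or Stat3, with some of their values on these arrays already known, so it supports nothing. It had 32 probe sets at the level in 20 genes, of which 1 (3.12%) was 2-fold higher and 7 (21.9%), in 6 genes, were 2-fold lower as deposited. Of all probe sets at the level 13.1% and 12.8% were, as given above. The median was -0.05, near that of all probe sets. With control centring 9 of the 32 were 2-fold higher and 0 lower, beside 37.1% and 2.25% of all.

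Tfcp2l1 and Klf5, factors of the naive state downstream of Stat3, differed little on their brightest probe sets as deposited. Tfcp2l1 read 12.02 and 12.03 and Klf5 10.99 and 11.16 in the hybridized and live samples, and with control centring both were higher, by 0.79 and 0.63. Bcl3, an IkB family protein, read 7.86 against 9.64, Gbx2, a homeobox factor, 5.66 against 7.44, and Icam1, an adhesion molecule, 9.74 against 10.88. These 3 stayed negative with control centring, at -0.98, -0.98 and -0.34. Bcl2l1, an inhibitor of apoptosis, read 7.29 against 8.71 on its only probe set at the level, but 5.52 against 3.27 and 5.92 against 3.12 on probe sets with means under it. Cebpb differed by -2.22 and 0.23 on its probe sets, both with means under the level. Myc was at -1.0, on the 2-fold limit. Ccnd1, a cyclin, differed by -1.70 and -1.12 on 2 probe sets and by 0.13 on its brightest. The single higher probe set was that of Fos, at 4.10. Tfap2c differed by 0.57 to 0.69 on its probe sets. The differences of Socs3, Pim1 and Pim3 lay between that of Tfcp2l1 and those of Bcl3 and Gbx2, an order that no common shift alters. Bcl3 and Gbx2 were the lowest of this list among probe sets at the level, at -1.78, and Tfcp2l1 was added after its value was seen. The order therefore says little about the members.

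**Figure D4:**
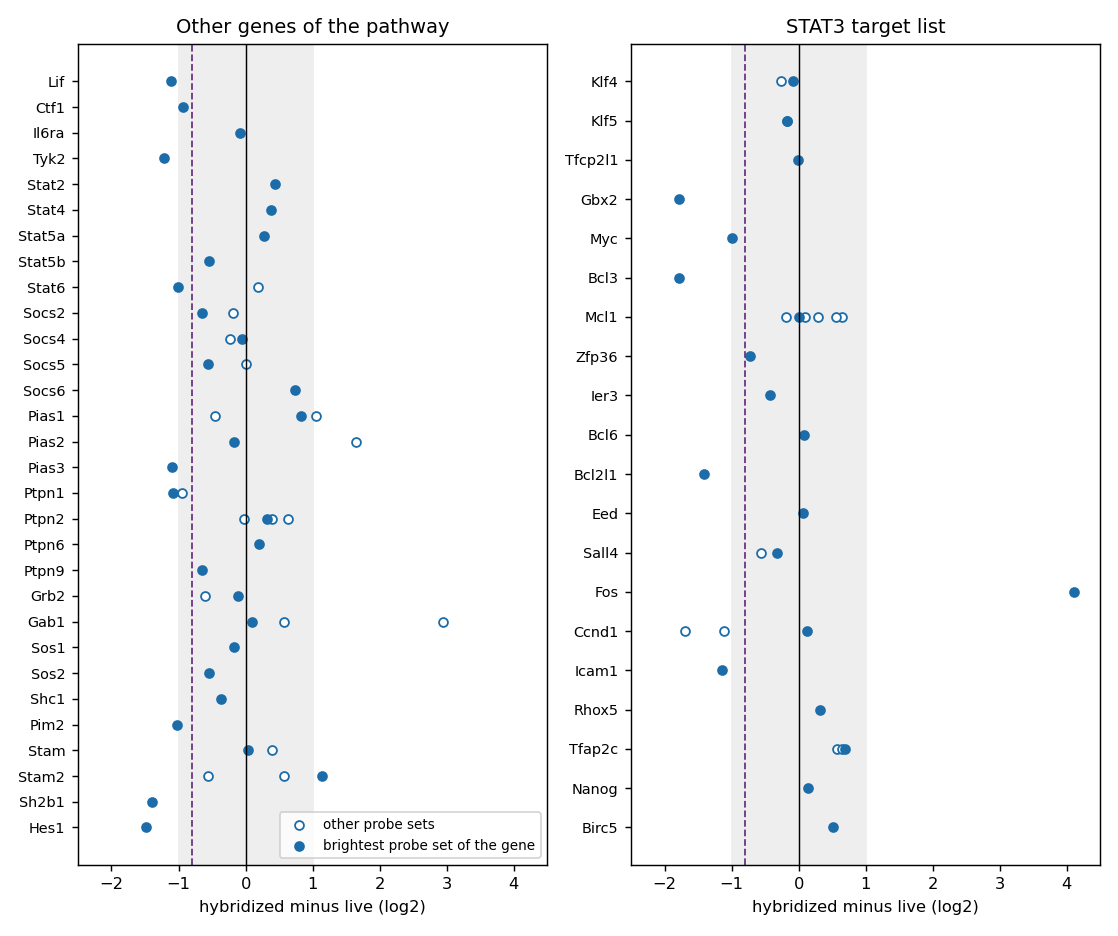
Differences (hybridized minus live, log2, 1 array per group) of the probe sets at the level for the other pathway genes (left, 47 probe sets) and the STAT3 target list (right, 32), with the brightest probe set of each gene filled, the range under 2-fold shaded and the control-centred zero (-0.80) dashed. Lif, Tyk2, Hes1, Sh2b1, Bcl3 and Gbx2 lie left of both zero lines, and the highest point of Gab1 is not its brightest probe set.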

How the data were processed

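The labels' sample type put 1 iPSC sample in the hybridized and 1 in the live group. Extraction used Trizol LS, amplification a NuGEN Ovation system and labelling biotin, per the labels' protocols. The authors deposited 1 log2 value per probe set and array, made with GCRMA and affy per the submitters' processing notes; the log base was inferred from the method and the range of 1.02 to 14.24. Not given in the sources used here were the genome build and the tool versions.

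Of 22690 probe sets, 20380 with 1 gene in the platform table were kept; 64 controls, 691 with several genes and 1555 unnamed were left out. Entrez IDs of all 9 genes matched RefSeq. Probe sets with a mean of 5 or more were compared and called at 2-fold, without a test. The members and lists were chosen with earlier results of these data known. Named were the 9 genes on every probe set, list genes that were 2-fold apart, and the receptors, ligands, JAK, STAT and SOCS genes of the pathway list; Klf5, Tfcp2l1 and the cell type markers were added after their values were seen, and so were the gaps between members and the bands of level. Of the 48 genes of that list, 43 were analysed here. The counting was checked on made-up arrays with known answers. Python 3.11.15, numpy 2.4.6, pandas 2.3.3, statsmodels 0.14.6 (loess, span 0.3) and matplotlib 3.10.9 were used.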

Additional observations from a re-analysis of the deposited data

How the results depend on the processing

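The count of 0 higher member probe sets was 2 with a level of 4 or none and 1 after loess. After quantile normalization it was 1 of 16, on a probe set under the level as deposited, and 0 of the same 15. It was 1 with the probe sets of a gene averaged and 2 at 1.5-fold. Centred on the hybridization controls it was 4 of 15, where 37.1% of all probe sets at the level were 2-fold higher. The count of 0 lower ones moved only at 1.5-fold, to 6. For the other pathway genes, 4 higher and 8 lower as reported, a level of 7 gave 4 lower, control centring 16 and 0, loess 5 lower, 1.5-fold 7 and 13, 4-fold 1 and 0, the brightest probe set 1 higher, and the mean over probe sets 1 and 5. For the STAT3 targets, 1 and 7 as reported, levels of 4 or none gave 3 higher, a level of 7 gave 4 lower, control centring 9 and 0, 1.5-fold 4 higher, 4-fold 0 lower and the mean over probe sets 4 lower. The members' median ran from -0.57 at a level of 7 to 0.36 with control centring. These counts come from 1 array per group. The hybridization controls themselves differed by -1.22 to -0.15, and signs are therefore uncertain. No replicate could be left out. No paired analysis was possible because each group has 1 array. Signal near the lower end limits what the 10 dim member probe sets show.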
